A study of Mus musculus with 4 samples.

Results

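Parts of the mouse genome exist in more than 1 copy, and short reads from such sequence fit several places. The regions described here were 961 autosomal bins of 100 kb, chosen by read counts, in which a ChIP-seq library of total histone H3 from untreated embryonic stem (ES) cells was rich in reads with 2 places. A bin belonged when that library listed 50 or more 2-place lines in it and when those lines came to 50% or more of its distinct 1-place positions. A 2-place line is 1 of the 2 places listed for a read, and a 1-place position is a position and strand holding at least 1 read with a single reported place. Stretches on chromosome 12 (113000001 to 117500000) and chromosome 6 (67000001 to 71500000) were left out. The members made up 4.01% of the 23967 autosomal bins with a read. Coordinates are those of the mm8 build.

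Histone H3 is a core protein of the nucleosome and is present on nearly all genomic DNA, so that an antibody to total H3 recovers most of the genome. The deposited files hold 4 libraries, 1 per group, all precipitated with Abcam AB1791. The first group was V6.5 ES cells (C57BL/6-129) kept for 24 h in 10 uM SB431542, which blocks the type I receptor kinases of TGF-beta and activin. The second was myotubes, the fused muscle cells that C2C12 myoblasts form, after 48 h in 2% horse serum with selenium, transferrin and insulin. The third was 38B9 cells, a pro-B line, in RPMI with serum, and the fourth was V6.5 ES cells in normal culture. Both ES cultures had been grown on irradiated mouse embryonic fibroblasts and then passaged on gelatin without them. The labels give a genetic background for the ES cells, and none is used here for C2C12 or 38B9. Strain, cell line and cell type therefore cannot be told apart. No input library was used, so DNA copy number and H3 recovered per copy cannot be told apart either.

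Segmental duplications are long stretches of DNA that occur again elsewhere in the same genome, in tandem, inverted or dispersed. They are known for differing in copy number between mouse strains and for holding expanded gene families, such as those of olfactory, vomeronasal and zinc finger genes. Satellite repeats are another kind of multi-copy sequence, short units repeated many times at and near centromeres, and mouse chromosomes carry their centromere at the end where numbering starts. The aligner options kept only reads with at most 2 places, so sequence present in many near-identical copies gave few lines or none. No mm8 annotation was at hand, so no gene is placed in these regions and no sequence is shown.

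In all, 904004 autosomal 2-place lines were read in SB431542-treated ES cells, 800471 in myotubes, 816901 in pro-B cells and 848643 in untreated ES cells. Distinct autosomal 1-place positions numbered 13469179, 12432118, 13015879 and 13132855 in the same order. Each library was scaled to these totals, section by section. A group was 1 library, so no condition could be tested against another and no replicate gave an error. Ratios carry 95% exact (Clopper-Pearson) intervals for counting error alone. Reads were amplified by PCR and carry no molecular identifier, so they are not independent molecules. Per the file headers, the SB431542 library was sequenced in a run of its own, so that its run and its treatment cannot be told apart.

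The members covered 96.1 Mb and formed 432 regions of neighbouring bins. Of these regions 220 were a single bin, 168 held 2 to 4 bins and 44 held 5 or more. The longest, at chr17:38800001-39800000, spanned 1 Mb with 2631 lines in SB431542-treated ES cells, 3004 in myotubes, 2970 in pro-B cells and 2581 in untreated ES cells. Chromosome 7 held the most members, 153 or 10.8% of its bins with reads, and chromosome 17 followed with 96 or 10.4%. Chromosome 18 held the fewest, 9 or 1.03%. In the first 1 Mb with reads of each autosome, 42 of 190 bins were members (22.1%), against 16 of 190 in the last 1 Mb (8.42%) and 903 of 23587 elsewhere (3.83%). The dense end was thus the one next to the centromere.

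In untreated ES cells, whose values chose the bins, 609 of the 961 members had at least as many 2-place lines as 1-place positions, and 27 had no 1-place position at all. As a description of the cutoff, 64 members had between 0.5 and 0.55 lines per position in untreated ES cells and 56 bins just missed it, with 0.451 to 0.499. Summed over those 64, lines per position came to 0.526 in SB431542-treated ES cells, 0.513 in myotubes, 0.503 in pro-B cells and 0.525 in untreated ES cells. Summed over the 56, it came to 0.501, 0.478, 0.499 and 0.479 in the same order. The same rule applied to each other library took in 922 of the members in SB431542-treated ES cells, 882 in myotubes and 861 in pro-B cells, and 818 members met it in every library. It also took in 65, 50 and 51 bins that were not members. The set of bins thus changed at its edge when another library chose it.

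Although they were 4.01% of the bins, the members held 36.1% of the autosomal 2-place lines in SB431542-treated ES cells, 35.03% in myotubes, 34.03% in pro-B cells and 36.3% in untreated ES cells. They held only 1.469%, 1.358%, 1.403% and 1.455% of the 1-place positions in the same order. A median member listed 247 lines in SB431542-treated ES cells, 195 in myotubes, 201 in pro-B cells and 232 in untreated ES cells. The 1458 other autosomal bins with 50 or more lines in untreated ES cells were shallower, with medians of 75, 67, 68.5 and 74 lines. Repeat lines, which fall on a position and strand already taken, made up 18.1%, 20.8%, 14.4% and 16.0% of the members' lines.

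In a median member, 2-place lines occurred along much of the bin, which does not show how evenly they lay. A median member had a 2-place line in 59 of its 100 windows of 1 kb in SB431542-treated ES cells, 55 in myotubes, 54 in pro-B cells and 58 in untreated ES cells. The other bins with 50 or more lines had one in 28, 27, 27 and 29 windows, at their lower depth. The share of lines on the plus strand was 49.1%, 48.7%, 49.1% and 49.1% in the members. In 6 members, 50% or more of the untreated ES lines fell in a single window of 1 kb, and these are described separately further on.

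The 2 places of a read are not joined in the files. They were joined here by matching the spacing of neighbouring lines between copies, with the offsets learnt from the other 3 libraries. This joined 59.8% of the members' distinct places in SB431542-treated ES cells, 60.2% in myotubes, 61.3% in pro-B cells and 60.2% in untreated ES cells. Of the joined places, 20.96%, 21.21%, 22.06% and 21.11% had their twin in the same bin. A further 44.4%, 44.1%, 44.6% and 44.6% had it in another bin of the same region. The twin lay elsewhere on the same chromosome for 28.8%, 29.4%, 28.0% and 28.8%, and on another chromosome for 5.85%, 5.39%, 5.42% and 5.53%. Most joined places therefore had their twin in the same region.

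The median distance between twins on 1 chromosome was 163 kb in SB431542-treated ES cells, 160.2 kb in myotubes, 146 kb in pro-B cells and 160.2 kb in untreated ES cells. Between 86.0% (myotubes) and 86.7% (untreated ES cells) of these pairs were less than 1 Mb apart. Opposite strands held 39.1%, 40.2%, 39.4% and 39.7% of them, an inverted arrangement. The twin itself fell in a member bin for 89.91%, 89.90%, 90.24% and 89.98%. As a check on the joining, places with repeated lines had exactly as many lines at their twin in 86.2%, 82.0%, 83.0% and 82.7% of cases.

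Over the 4 libraries, 237 of the 432 regions had 50% or more of their places joined. Of these 237, 143 had most twins inside the region, 87 elsewhere on the chromosome, 6 on another chromosome, and 1 had no such majority. Most twins were on the same strand in 155 of them and on the opposite strand in 82. An inverted example was chr17:6100001-6600000, where 93.7% of places were joined, 99.0% of those to another bin of the region and 96.5% to the opposite strand. Next to it, all joined places of chr17:6700001-7000000 had an inverted twin elsewhere on the chromosome, 43.7% of them in the bin starting at 7900001.

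**Figure D1:**
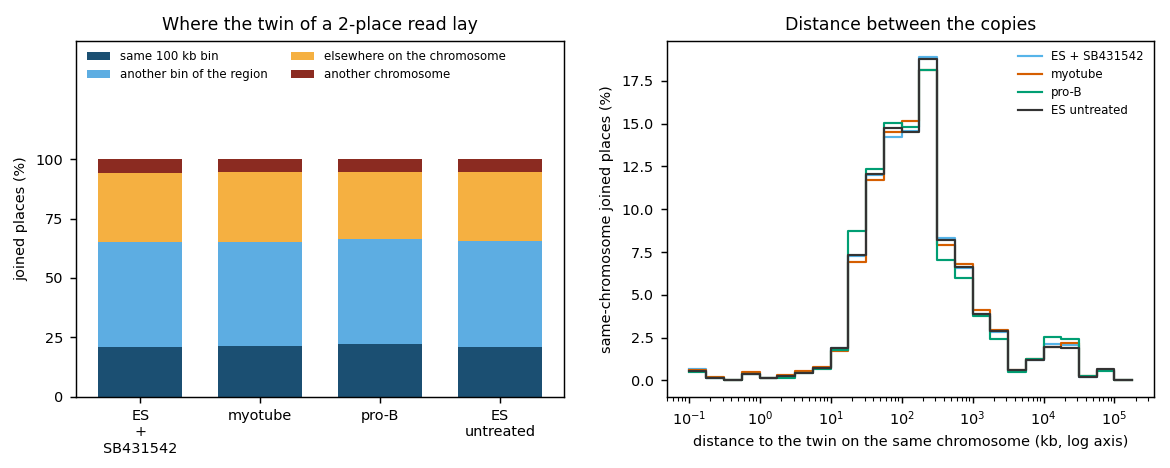
Left, stacked bars give where the joined twin of each 2-place read lay, as a percentage of the joined places in member bins, for 1 library per bar. Right, lines give the distribution of the distance between twins on the same chromosome in kb on a log axis, as a percentage of same-chromosome joined places; the 4 lines lie close together, with medians between 146 and 163 kb.

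Summed over all members, the libraries differed little. The scaled 2-place lines of SB431542-treated ES cells were 0.995 times those of untreated ES cells (0.988 to 1.002). Myotubes had 0.967 times (0.960 to 0.974) and pro-B cells 0.939 times (0.932 to 0.946) the untreated ES value. The 1-place positions of the same bins were at 1.01 times (1.003 to 1.016) in SB431542-treated ES cells, 0.933 times (0.927 to 0.940) in myotubes and 0.965 times (0.959 to 0.971) in pro-B cells. These 3 comparisons share the untreated ES library, and its lines and positions also chose the bins. The myotube value moved to 1.01 times in both sections when the libraries were scaled to the median of the other bins with 50 or more lines, which raised the 2-place myotube ratios by 0.06 on the log2 scale. The 1-place value of pro-B cells became 1.02 times under that scaling.

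Myotubes against pro-B cells is the comparison whose libraries did not choose the bins. Myotubes had 1.03 times (1.02 to 1.04) the 2-place lines of pro-B cells and 0.968 times (0.961 to 0.974) their 1-place positions, or 1.02 times with all 1-place reads as deposited. The direction of the 2-place value rested on 1 bin. Without chr2:98400001-98500000, the bin with the most lines, it was 0.978 times, or 0.995 times with that bin also left out of the totals. It was 0.976 times with at most 1 line per position and strand.

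Single bins varied much more than the totals, and the untreated and treated ES libraries resembled each other most. The log2 ratio of 2-place lines had a median of 0.01 and an SD of 0.18 over the 961 members for SB431542-treated against untreated ES cells. For myotubes against untreated ES cells the median was -0.11 and the SD 0.57. For pro-B cells against untreated ES cells they were -0.17 and 0.64, and for myotubes against pro-B cells 0.04 and 0.54. Among the 1458 other bins the SDs were 0.29, 0.40, 0.43 and 0.48 in the same order. The members ranged down to -7.00 in myotubes and -9.36 in pro-B cells against untreated ES cells. Both extremes came from the near-empty block of chromosome 4 described further on, and they enter the SDs. The pro-B extreme was a bin without any pro-B line, so its size rests on the 0.5 added to each count. The middle 50% of members was narrower than that of the other bins for myotubes against untreated ES cells, at -0.33 to 0.09 against -0.38 to 0.11. For pro-B cells it was wider, at -0.42 to 0.10 against -0.35 to 0.16, and for myotubes against pro-B cells it was -0.24 to 0.30 against -0.32 to 0.24.

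A bin was called higher or lower when its log2 ratio, with 0.5 added to each count, reached 0.5 in size, or 1.41 times. The background is the share of all 2419 autosomal bins with 50 or more untreated ES lines that passed the same rule. It was taken over all autosomes together, so counts for single chromosomes have no background of their own. In SB431542-treated against untreated ES cells, 3 members were higher (background 0.868%) and 5 were lower (background 5.21%). Both member shares, 0.312% and 0.520%, were under the background, whose other bins were shallower. Of the members called, 37.5% were higher. With the scaling to the median of the other bins that share was 90.9%, from 10 higher and 1 lower, so that the balance depended on the scaling.

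In myotubes against untreated ES cells, 29 members were higher (background 2.94%) and 143 were lower (background 14.8%). By size alone, the member shares of 3.02% and 14.9% were close to the background. When the interval also had to exclude 1, 26 members were higher (2.71%, background 1.98%) and 136 lower (14.15%, background 8.76%). Bins with fewer lines have wider intervals, so depth enters the shares under both rules. Chromosome 7 held 49 of the 143 lower members, and over all its bins chromosome 7 had 0.752 times the untreated ES 1-place positions. Without chromosomes 7, 8 and 15, 85 members were lower, and no background share was computed for that setting. Chromosome 4 held 19 lower members, or 26.8% of its 71 members, while that chromosome as a whole was near the ES level, at 0.981 times. Chromosome 17, at 0.998 times as a whole, held 16 of 96, or 16.7%, close to the share over all members.

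In pro-B against untreated ES cells, 63 members were higher (background 6.82%) and 188 were lower (background 16.8%). The higher share, 6.56%, was close to the background and the lower share was 19.6%. When the interval also had to exclude 1, 60 were higher (6.24%, background 5.62%) and 168 lower (17.5%, background 9.96%). By share of its own members, chromosome 4 stood highest with 34 of 71 lower (47.9%), followed by chromosome 12 with 14 of 44 (31.8%) and chromosome 3 with 13 of 48 (27.1%). Chromosome 7 held 38 of 153 (24.8%). Chromosome 4 had no higher member, and its 71 members together had 0.718 times the untreated ES lines, against 0.965 times for the 1-place positions of the whole chromosome.

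In myotubes against pro-B cells, 122 members were higher (background 11.6%) and 108 were lower (background 13.1%), shares of 12.7% and 11.2%. On chromosome 12, 15 of 44 members were higher and 2 lower in myotubes, and on chromosome 4 the counts were 17 and 3 of 71. On chromosome 17 they were 7 and 15 of 96.

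**Figure D2:**
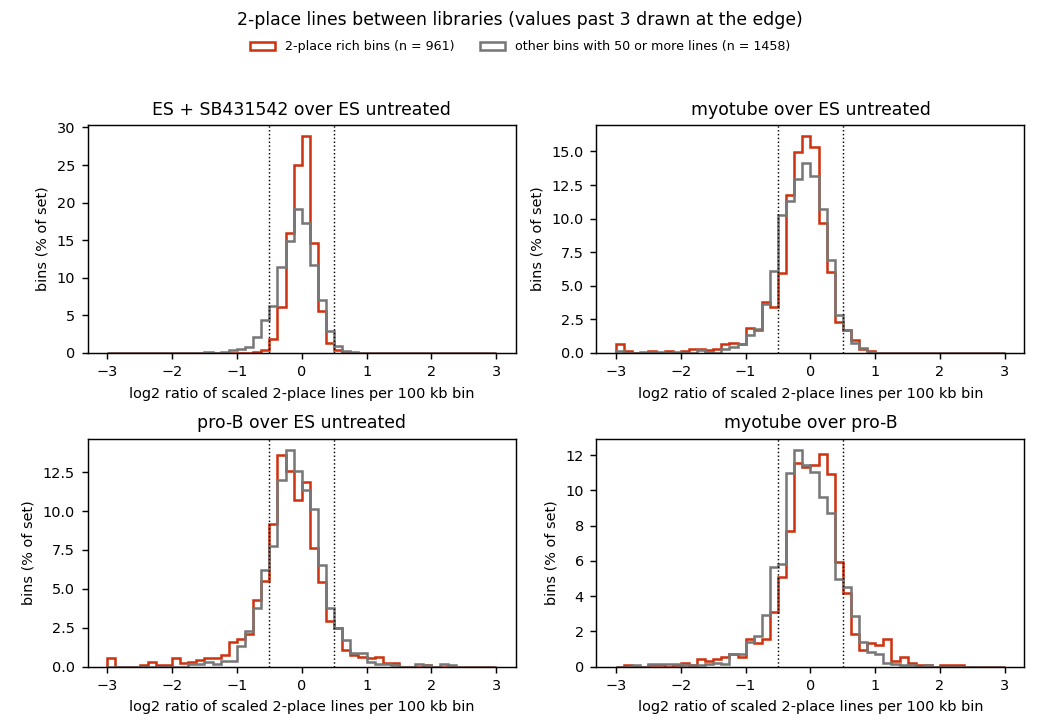
Histograms of the log2 ratio of scaled 2-place lines per 100 kb bin (x) as a percentage of the bins in each set (y), for the 961 members in red and the 1458 other bins with 50 or more lines in untreated ES cells in grey. Dotted lines mark a size of 0.5; the members are narrowest around 0 for SB431542-treated against untreated ES cells (SD 0.18), and beyond -1 they have a tail in myotubes and pro-B cells against untreated ES cells.

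The 1-place positions of a called bin mostly had a ratio on the same side of 1 as its 2-place lines. Against untreated ES cells, most members were under 1 in myotubes and pro-B cells in any case. Positions with 1 place also occurred inside duplicated stretches, so they do not stand for the single-copy sequence of a bin. Of the members, 769 had a mean of 50 or more 1-place positions, and calls of that section are limited to them. In myotubes against untreated ES cells, 24 of these were higher (background 2.02%) and 90 lower (background 8.98%) in 1-place positions. In pro-B cells they were 46 (background 6.20%) and 111 (background 10.4%). In SB431542-treated ES cells they were 4 (background 0.180%) and 4 (background 0.180%), and in myotubes against pro-B cells 68 (background 6.69%) and 93 (background 12.3%).

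Among the 769, 108 had 2-place lines called lower for myotubes against untreated ES cells, and 100 of these also had a 1-place ratio under 1, 57 of them past the same size. Over all 769, 496 (64.5%) had a 1-place ratio under 1. In pro-B cells 108 of 117 lower members had a 1-place ratio under 1 and 48 of 51 higher members had one above 1, beside 64.5% and 35.5% of all 769. For myotubes against pro-B cells these counts were 79 of 89 lower and 62 of 69 higher members, beside 49.2% and 50.8% of all 769. The 3 higher and 2 lower members of SB431542-treated ES cells with enough 1-place positions showed no such pattern, with 1 of 3 and 1 of 2 in the same direction.

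At the level of regions, 402 of the 432 had a mean of 100 or more 2-place lines over the 4 libraries. In SB431542-treated against untreated ES cells none of them was higher and 1 was lower by the rule of size. Against untreated ES cells, 7 regions were higher and 53 lower for myotubes, and 26 and 58 for pro-B cells. Regions that hold each other's twins list the same reads, so the called regions are not independent of each other. Against pro-B cells, 38 were higher and 46 lower for myotubes. In 379 regions with enough 1-place positions, the 2-place log2 ratio minus the 1-place log2 ratio had a median between -0.02 and 0.02 in all 4 comparisons. It reached 1 in size in 0 regions for SB431542-treated ES cells, 4 for myotubes and 8 for pro-B cells, all against untreated ES cells, and 10 for myotubes against pro-B cells.

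**Figure D3:**
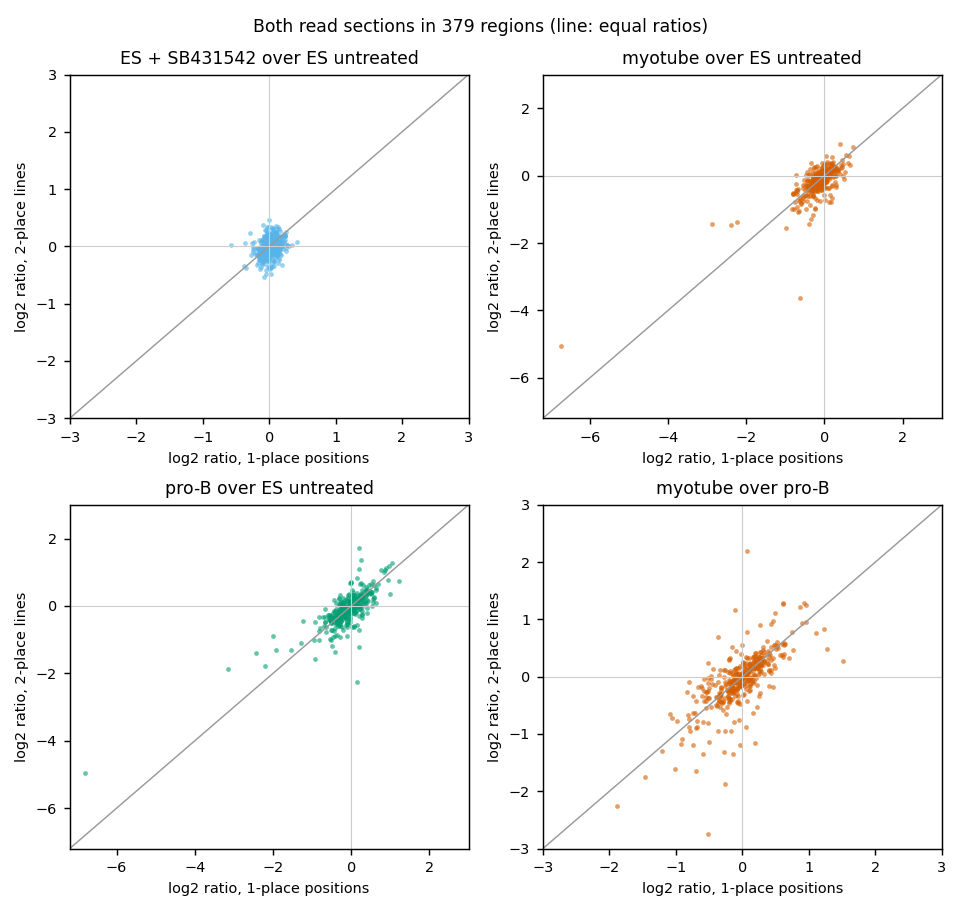
Each point is 1 of 379 regions, with the log2 ratio of 1-place positions (x) against that of 2-place lines (y) in 4 comparisons, and the diagonal marks equal ratios. Axis ranges differ between panels; the far lower left point in myotubes and in pro-B cells against untreated ES cells is chr4:121600001-122000000.

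The lowest values in both other cell lines came from 1 block of chromosome 4. Its members were chr4:121400001-121500000 and chr4:121600001-122000000. The region at 121600001 had 930 lines in SB431542-treated ES cells, 24 in myotubes, 26 in pro-B cells and 859 in untreated ES cells. It had 207, 1, 1 and 168 1-place positions. The region at 121400001 had 419, 15, 28 and 399 lines and 89, 0, 1 and 103 positions. Both ES libraries were thus high and both other libraries close to empty, in either kind of read.

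The bin starting at 121800001 listed 361 lines in SB431542-treated ES cells, 2 in myotubes, none in pro-B cells and 340 in untreated ES cells. The stretch from 121350001 to 122000000, whose edges were set after the values were seen, had 0.0568 times the untreated ES lines in myotubes (0.0392 to 0.0799) and 0.0525 times in pro-B cells (0.0358 to 0.0745). Its 1-place positions were 714, 2, 6 and 653, or 0.00324 times in myotubes (0.000391 to 0.0117) and 0.00927 times in pro-B cells (0.00339 to 0.0203). SB431542-treated ES cells had 1.02 times the lines (0.915 to 1.14) and 1.07 times the positions (0.957 to 1.19). In the 100 kb that followed, the libraries had 217, 197, 219 and 209 positions. Most of these lay from 122050001 on (203, 189, 216 and 201), and the 50 kb from 122000001 held only 14, 8, 3 and 8. The difference therefore ended at or before 122050001. Its other end could not be seen, since the 50 kb before the stretch held no line and no position in any library.

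Copies within this block were paired with each other. In the region at 121400001, 78.5% of places were joined, all elsewhere on the chromosome and on the same strand, and 98.9% of them to the bin starting at 121800001. The most frequent offset was 392923 bp. In the region at 121600001, 83.1% were joined, 53.2% of them to another of its own bins and 46.5% elsewhere on the chromosome. Its twins lay in the bin at 121400001 for 44.6% of the joined places. Most joined places of either region thus had their twin inside the same block.

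A second low area of chromosome 4 lay between 112300001 and 113800000, where 4 regions held 11 members. Its 2-place lines were 2884 in SB431542-treated ES cells, 1074 in myotubes, 955 in pro-B cells and 2555 in untreated ES cells. Its 1-place positions were 3039, 939, 879 and 2911. Myotubes had 0.446 times the untreated ES lines (0.402 to 0.494) and 0.341 times the positions (0.316 to 0.367). Pro-B cells had 0.388 times (0.349 to 0.431) and 0.305 times (0.282 to 0.329). Here neither library was empty, and the positions were lower than the lines in both.

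Within that area, the region at chr4:112300001-112700000 had 740 lines in SB431542-treated ES cells, 232 in myotubes, 189 in pro-B cells and 678 in untreated ES cells, with 717, 118, 140 and 656 positions. The single bin at 113300001 had 137, 57, 43 and 166 lines and 232, 28, 24 and 220 positions. Few of their places were joined, 12.8% and 3.61%. So the copies that share these reads were mostly not found.

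In myotubes alone, the lowest region was the bin chr2:27300001-27400000, with 37 lines against 480 in SB431542-treated ES cells, 257 in pro-B cells and 492 in untreated ES cells. Myotubes had 0.0776 times the untreated ES lines (0.0452 to 0.125) and pro-B cells 0.541 times (0.433 to 0.672). In the other 3 libraries most of these lines came from 10 kb, 27315001 to 27325000, chosen after the values were seen. That stretch had 458 lines in SB431542-treated ES cells, 17 in myotubes, 231 in pro-B cells and 465 in untreated ES cells, and 252, 23, 154 and 250 1-place positions. Myotubes had 0.0366 times the lines (0.0156 to 0.0732) and 0.0972 times the positions (0.0605 to 0.149).

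In the 75 kb after that stretch the positions were 422, 415, 510 and 506, or 0.866 times in myotubes. The joined twins of the bin, 73.2% of its places, were all on other chromosomes, 53.1% of them in the bin starting at 105100001 on chromosome 5. That place, chr5:105160001-105180000, had 457 lines in SB431542-treated ES cells, 35 in myotubes, 222 in pro-B cells and 414 in untreated ES cells. Its 1-place positions numbered 184, 35, 135 and 192. Both copies, on different chromosomes, thus had few reads in myotubes and an intermediate number in pro-B cells. Since a 2-place read is listed at both, only the 1-place positions tell them apart, at 0.0972 and 0.193 times the untreated ES value in myotubes.

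The chromosome 5 copy lies in a larger low region, chr5:104800001-105200000. It had 1622 lines in SB431542-treated ES cells, 497 in myotubes, 735 in pro-B cells and 1539 in untreated ES cells. Without the last copy, from 104800001 to 105160000, myotubes still had 0.435 times (0.371 to 0.508) and pro-B cells 0.472 times (0.406 to 0.549) the untreated ES lines. Positions were at 0.527 and 0.583 times there. Outside the shared copy the myotube and pro-B values were close, with a ratio of 0.921 (0.767 to 1.10).

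In pro-B cells, the lowest region beside those of chromosome 4 was chr3:92300001-92400000. It had 411 lines in SB431542-treated ES cells, 335 in myotubes, 74 in pro-B cells and 368 in untreated ES cells. Here 91.4% of places were joined, 96.6% of them within the bin and all on the same strand, most often at an offset of 34792 bp. The bin thus holds a direct repeat of 2 units side by side.

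The 70 kb of the pair, from 92300001 to 92370000, had 382 lines in SB431542-treated ES cells, 309 in myotubes, 49 in pro-B cells and 338 in untreated ES cells. The 1-place positions there were 1, 1, 0 and 1, so that nearly every read of at most 2 places fitted both units. Pro-B cells had 0.148 times the untreated ES lines (0.0920 to 0.227), while myotubes had 0.966 times (0.772 to 1.21). The remaining 30 kb of the bin had 29, 26, 25 and 30 lines and 79, 63, 64 and 57 positions. The pro-B value was thus low in the pair and near the others in the sequence beside it.

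**Figure D4:**
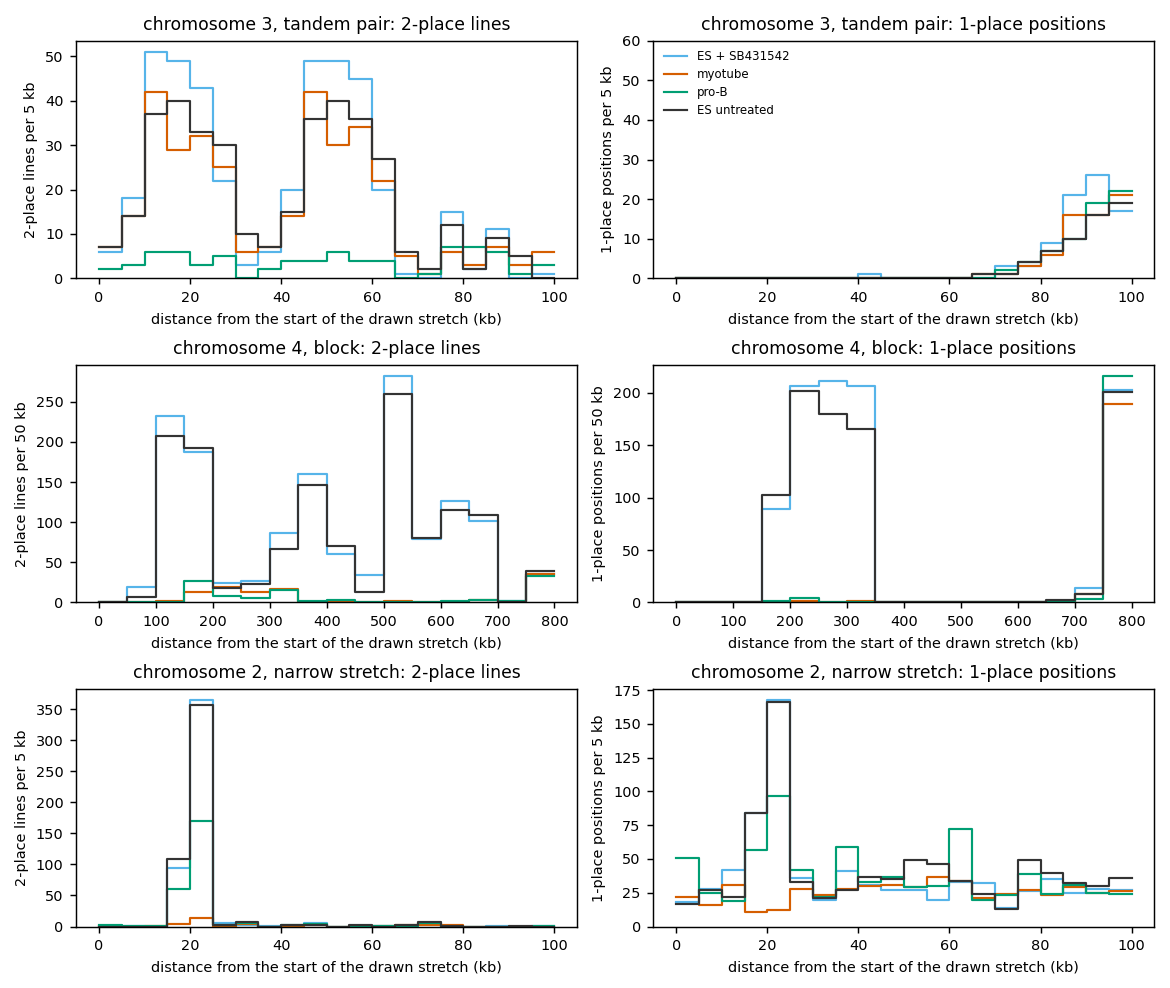
Unscaled 2-place lines (left) and 1-place positions (right) along 3 stretches, in windows of 5 kb (chromosomes 3 and 2) or 50 kb (chromosome 4), with distance from the start of the drawn stretch on x and 1 line per library. On chromosome 3 only the pro-B line is low over both units, on chromosome 4 the myotube and pro-B lines are near 0 over the block, and on chromosome 2 the peak is nearly absent in myotubes and lower in pro-B cells.

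Some regions differed mainly in their 2-place lines. At chr18:32900001-33000000, the lines were 371 in SB431542-treated ES cells, 185 in myotubes, 138 in pro-B cells and 336 in untreated ES cells, while the positions were 457, 408, 455 and 397. Its twins were 11833 bp apart at the most frequent offset. At chr17:34900001-35100000, the lines were 1308, 421, 1097 and 1216 in the same order, with myotubes low, while the positions were 397, 275, 436 and 380. At chr11:27700001-27900000, myotubes had 389 lines and pro-B cells 884, with 787 and 818 in treated and untreated ES cells, while the positions were 508 in myotubes and 466 in pro-B cells. Each of the 3 had most joined twins inside the region.

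Where pro-B cells were highest relative to myotubes, the 1-place positions were often higher too. The bin chr13:19200001-19300000 had 281 lines in SB431542-treated ES cells, 152 in myotubes, 740 in pro-B cells and 320 in untreated ES cells. Pro-B cells had 2.40 times the untreated ES lines (1.99 to 2.91) and 2.07 times the positions (1.75 to 2.45). Myotubes had 0.504 times (0.378 to 0.666) and 0.559 times (0.439 to 0.707). The 2 cell lines thus differed from untreated ES cells in opposite directions, and by similar amounts in both kinds of read.

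At chr11:48700001-48900000 pro-B cells stood alone. The lines were 740 in SB431542-treated ES cells, 721 in myotubes, 1566 in pro-B cells and 718 in untreated ES cells, and the positions were 396, 362, 711 and 367. Pro-B cells had 2.27 times the untreated ES lines (2.00 to 2.58) and 1.96 times the positions (1.72 to 2.22), and myotubes 1.06 times (0.916 to 1.23) and 1.04 times. The copies sat 71867 bp apart most often, and 86.4% of places were joined.

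At chr7:106300001-106400000 pro-B cells had 484 lines against 229 in untreated ES cells, or 2.21 times (1.76 to 2.78), and 1.87 times the positions. SB431542-treated ES cells had 263 lines and myotubes 141. At chr10:21700001-22300000, among the regions with the most lines, the values were 3697 in SB431542-treated ES cells, 3190 in myotubes, 5179 in pro-B cells and 3485 in untreated ES cells. Pro-B cells had 1.54 times the untreated ES lines (1.45 to 1.64) and 1.51 times the positions (1.396 to 1.626). At chr13:12600001-13300000 the values were 5561, 4616, 6341 and 5181 lines in that order, or 1.27 times (1.21 to 1.34) in pro-B cells, with positions at 1.32 times.

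The inverted region chr17:6100001-6600000 separated the 2 cell lines as well. It listed 4923 lines in SB431542-treated ES cells, 3054 in myotubes, 6893 in pro-B cells and 5421 in untreated ES cells. Myotubes had 0.452 times the pro-B lines (0.426 to 0.480) and 0.705 times their positions (0.663 to 0.749). The inverted neighbour chr17:6700001-7000000 had 2879, 2847, 3120 and 2878 lines, or 0.931 times in myotubes against pro-B cells (0.866 to 1.001). The neighbour thus differed far less between libraries.

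Myotubes were highest relative to untreated ES cells at chr2:88400001-88500000. It had 459 lines in SB431542-treated ES cells, 688 in myotubes, 514 in pro-B cells and 384 in untreated ES cells. Myotubes had 1.90 times the untreated ES lines (1.59 to 2.28) and 1.32 times the positions (1.10 to 1.58). At chr5:14900001-15200000 the lines were 968 in SB431542-treated ES cells, 1398 in myotubes, 743 in pro-B cells and 972 in untreated ES cells. The myotube value was 1.53 times (1.36 to 1.72) in lines and 1.47 times (1.25 to 1.73) in positions, so that both kinds of read were higher.

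The other 3 of the 5 highest myotube regions were at 1.51 to 1.79 times in lines. They were chr12:104100001-104300000, chr13:65500001-65700000 and chr15:78100001-78200000. The last lies on a chromosome that over all its bins had 1.28 times the untreated ES positions in myotubes, and its own positions were at 1.54 times (1.34 to 1.77).

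Against pro-B cells, myotubes were also higher in several long clusters. The region chr7:9600001-10500000, 9 bins long, had 1302 lines in SB431542-treated ES cells, 993 in myotubes, 417 in pro-B cells and 1297 in untreated ES cells. Myotubes had 2.43 times the pro-B lines (2.07 to 2.88) and 1.53 times the positions (1.29 to 1.81). At chr3:93700001-94400000 the lines were 1735, 2052, 869 and 1661, or 2.41 times in myotubes against pro-B cells (2.15 to 2.71). At chr4:144600001-145000000 they were 2055, 2039, 871 and 1819, or 2.39 times (2.14 to 2.68), with positions at 1.93 times (1.76 to 2.13).

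At chr4:145400001-145700000 the lines were 488 in SB431542-treated ES cells, 401 in myotubes, 168 in pro-B cells and 374 in untreated ES cells. There, 38.2% of the joined twins lay in the bin at 144700001, inside the region just named. In these 4 clusters pro-B cells were the low library, with 0.334 to 0.543 times the untreated ES lines. Myotubes ranged from 0.812 to 1.31 times.

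A different kind of member held very many lines on few positions. The bin chr2:98400001-98500000 had 24121 lines in SB431542-treated ES cells, 29398 in myotubes, 16110 in pro-B cells and 24311 in untreated ES cells, or 17.6, 22.5, 13.6 and 18.8 lines per place. Myotubes had 1.28 times the untreated ES lines (1.25 to 1.31) and pro-B cells 0.688 times (0.669 to 0.708). With at most 1 line per position and strand these values were 1.09 and 0.947 times, and SB431542-treated ES cells were at 1.02 in place of 0.931 times. Its joined twins lay in the bin itself in 99.2% of cases.

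The same order, with myotubes high and pro-B cells low, was seen in other such bins. At chr14:39100001-39200000, where over 99% of lines fell in a single 1 kb window in each library, the lines were 5765 in SB431542-treated ES cells, 7873 in myotubes, 3714 in pro-B cells and 5714 in untreated ES cells. Myotubes had 1.46 times (1.39 to 1.53) and pro-B cells 0.675 times (0.637 to 0.716) the untreated ES lines, or 1.14 and 0.977 times with 1 line per position and strand. At chr9:35000001-35100000 the lines were 1632, 2234, 1021 and 1581, and at chr14:18200001-18300000 they were 1371, 1470, 713 and 1006. Of the 6 bins with 50% or more of their lines in 1 window, these 4 had the highest scaled value in myotubes and the lowest in pro-B cells.

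In the other 2 of the 6, myotubes were not the highest library. At chr6:103600001-103700000 the lines were 1828 in SB431542-treated ES cells, 1396 in myotubes, 1129 in pro-B cells and 1249 in untreated ES cells. Myotubes were still above untreated ES cells, at 1.19 times (1.06 to 1.32), and pro-B cells were at 0.939 times (0.836 to 1.05). This bin was the highest region of SB431542-treated ES cells, at 1.38 times (1.24 to 1.53), but at 0.932 times with 1 line per position and strand. At chr19:61300001-61400000, next to the far end of the chromosome, the lines were 110, 39, 211 and 84. There myotubes were lowest and pro-B cells highest.

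The bin starting at 3000001, the first of the numbered sequence, was a member on 10 of the 19 autosomes. Of these 10 bins, 6 had more lines in myotubes and fewer in pro-B cells than in untreated ES cells. Myotubes were lower on chromosomes 12 (0.768 times), 17 (0.942 times) and 18, and pro-B cells were at 1.01 times on chromosome 13. At chr9:3000001-3300000 the lines were 6573 in SB431542-treated ES cells, 7091 in myotubes, 3829 in pro-B cells and 5790 in untreated ES cells. Myotubes had 1.30 times (1.24 to 1.36) and pro-B cells 0.687 times (0.648 to 0.728) the untreated ES lines, or 1.13 and 0.814 times with 1 line per position and strand. At chr5:3000001-3400000 the lines were 4029, 4132, 2455 and 3582, with myotubes at 1.22 and pro-B cells at 0.712 times, or 0.989 and 0.859 times with 1 line per position and strand.

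The start of chromosome 18 went the other way. In chr18:3000001-3200000 the lines were 795 in SB431542-treated ES cells, 496 in myotubes, 1867 in pro-B cells and 592 in untreated ES cells. The first 10 kb held 582, 299, 1709 and 380 of them, and there pro-B cells had 4.67 times the untreated ES lines (3.99 to 5.49) but 1.21 times the 1-place positions (1.04 to 1.39). For the whole region pro-B cells were at 3.28 times (2.87 to 3.75), or 1.31 times with 1 line per position and strand. Most of the difference was thus in lines at positions already taken.

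Of the joined twins of that region, 70.2% lay on another chromosome, 31.6% in the bin chr15:74900001-75000000. That bin, named after its values were seen, had 802 lines in SB431542-treated ES cells, 615 in myotubes, 1722 in pro-B cells and 639 in untreated ES cells. Joined reads are listed in both bins, so its line counts are not independent of those on chromosome 18. A similar pattern held at chr2:181800001-181900000, near the far end of chromosome 2. Its lines were 904, 527, 1681 and 675, or 2.59 times in pro-B cells (2.28 to 2.95), 1.45 times with 1 line per position and strand, and its positions were at 1.19 times.

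Between SB431542-treated and untreated ES cells, the log2 ratio of the 402 regions ranged from -0.53 to 0.46, and the interval lay above 1 in 18 regions and below 1 in 21. The lowest region of treated cells was chr5:121100001-121200000, with 311 lines against 422 in untreated ES cells, at 0.690 times (0.557 to 0.853), and 219 and 260 in myotubes and pro-B cells. Its positions were at 0.946 times (0.816 to 1.10). After chr6:103600001, the 4 highest regions lay between 1.27 and 1.31 times. These were chr2:176800001-176900000, chr8:107700001-107800000, chr14:58200001-58300000 and chr13:27100001-27200000, each with at most 326 lines in any library. Only the interval of the one on chromosome 8 (1.03 to 1.67) did not include 1, and its positions were at 0.942 times (0.798 to 1.11). All joined twins of the one on chromosome 2 lay outside the region, so its interval (0.901 to 1.93) is too wide. That it includes 1 is therefore not a result.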

How the data were processed

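Per the file headers, the authors used Bowtie on mm8 with up to 2 mismatches in the first 36 bases (-n 2, -l 36), summed mismatch qualities of up to 70 (-e 70) and up to 2 places (-k 2, -m 2); no Bowtie version is given in the sources used here. The deposited values are signed positions, 1 per listed place and negative on the minus strand, without count, score or normalization. They were read as counted from 1, which no source states; 11 lines at 3000000 on chromosome 9 lie 1 base before the first full bin. Counting from 0 gave 961 members too. The reading of the 2 sections as reads with 1 and 2 places was inferred from their names, the options and the even line number of the second section in all 4 files.

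Repeats were kept in 2-place lines and removed in 1-place positions. Each section was scaled to its autosomal total. Line ratios given with an interval, and that interval, were computed on lines divided by 2 and rounded down, since each read gives a pair. At low counts the rounding moves the ratio. From undivided lines, myotubes at chr2:27300001-27400000 had 0.0797 times the untreated ES value, not 0.0776. Where the twin lay outside the counted stretch, each line was a separate read, so that the interval is too wide there. Twins were joined on 3 successive gaps, within 5 kb windows holding at least 3 matches at 1 offset of at least 100 bp. The members, lists and named regions were chosen with earlier results of these data known. Named regions were the 8 with the most untreated ES lines and, among regions averaging at least 100 lines, the 5 highest and 5 lowest in each comparison, 39 in all. The regions whose 2-place and 1-place log2 ratios lay 1 or more apart, the bins with most lines in 1 window, the first bins and the stretches were picked after their values were seen. Python 3.11.15, NumPy 2.4.6, SciPy 1.17.1 and pandas 2.3.3 were used, and calls and joining were checked on simulated data. Alternatives changed repeats, scaling, thresholds, bin edges, the choosing library, the chromosomes and the bin with most lines.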

Additional observations from a re-analysis of the deposited data

How the results depend on the processing

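Of 119 alternative values for the totals and counts, 69 kept their direction and size, 43 moved and 7 turned direction; the cause was not tested unless the setting itself gives it. The alternatives without the bin with most lines, with positions counted from 0, and with an interval that excludes 1, were chosen after seeing the data. Requiring 2-place lines at or above the 1-place positions left 609 members. Scaling to the median of the other bins gave 2-place totals of 1.05 (SB431542-treated ES cells), 1.01 (myotubes) and 0.976 (pro-B cells) times untreated ES cells, 1-place totals of 1.01 (myotubes) and 1.02 (pro-B cells), and a 1-place total of 0.988 for myotubes against pro-B cells. With 1 line per position and strand the 2-place totals were 0.929 (myotubes), 0.951 (pro-B cells) and 0.976 (myotubes against pro-B cells). With all 1-place reads as deposited the 1-place totals were 0.967 (myotubes), 0.951 (pro-B cells) and 1.02 (myotubes against pro-B cells). Members chosen in SB431542-treated ES cells gave 2-place and 1-place totals of 1.002 and 1.001 for that library, and 1-place totals of 0.925 (myotubes) and 0.958 (pro-B cells). Without chromosomes 7, 8 and 15 the 2-place totals were 0.989 (myotubes) and 1.05 (myotubes against pro-B cells), and with bins shifted by 50 kb that of pro-B cells was 0.932. Without the bin with most lines they were 0.939 (myotubes), 0.960 (pro-B cells) and 0.978 (myotubes against pro-B cells), and with it also out of the totals 0.947, 0.952 and 0.995.

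In SB431542-treated ES cells, 5 members were higher with 1 line per position and strand. Scaling to the median gave 10 higher and 1 lower, choosing in that library 12 and 3, a log2 size of 1 gave 0 and 0, and a size of 0.3 gave 45 and 56. There, 2 were lower without chromosomes 7, 8 and 15, and 3 (0.312%, background 0.91%) when the interval had to exclude 1. At a size of 1 and of 0.3, the higher members were 0 and 81 and the lower 40 and 267 in myotubes, 16 and 125 and 57 and 344 in pro-B cells, and 42 and 241 and 35 and 204 in myotubes against pro-B cells. Without chromosomes 7, 8 and 15, 85 were lower in myotubes. Apart from the rule with the interval, no background share was computed for these alternatives. Their counts therefore do not show whether members differed from other bins. Of 156 ratios of named regions recomputed with 1 line per position and strand, 132 kept their value within the counting interval, 18 moved and 6 turned. These 6 were SB431542-treated ES cells at chr2:98400001 (1.02), chr14:39100001 (1.07) and chr6:103600001 (0.932), myotubes at chr5:3000001 (0.989) and chr6:103600001 (0.939), and myotubes against pro-B cells at chr6:103600001 (0.924). No paired analysis was possible because each group has 1 library. Members with few lines allow no more than a wide interval.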

Other observations

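The sex chromosomes were outside the autosomal rule, and the same thresholds were applied to them after the autosomal values had been seen. On chromosome X, 107 of 1604 bins with reads met them, with 22014 lines in SB431542-treated ES cells, 25456 in myotubes, 17969 in pro-B cells and 19865 in untreated ES cells. Myotubes had 1.36 times the untreated ES lines and 1.62 times the 1-place positions, relative to the autosomal totals. On chromosome Y, 13 of 27 bins met them, with 5394 lines in SB431542-treated ES cells, 234 in myotubes, 3132 in pro-B cells and 5229 in untreated ES cells. The 1-place positions of these bins were 3251, 41, 2041 and 3081. Pro-B cells had 0.622 times the untreated ES lines and 0.668 times the positions there.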
